A study of Mus musculus with 2 samples.

Results

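Epithelial junction genes encode the proteins that hold luminal cells of the mammary gland together. The 10 genes followed here, taken by symbol, were Epcam, Cdh1, Cdh13, Cldn1, Cldn3, Cldn4, Cldn7, Tjp1, Ocln and Gja1. Each had 1 row among the 31053 genes of both count matrices. Expression was measured by droplet-based single-cell RNA sequencing, which counts transcripts from their 3′ ends. The C3-TAg library came from cells labelled mammary luminal of Sox9-GFP;C3-TAg mice, and the WT library from such cells of Sox9-GFP mice. Mice of both groups were FVB/NJ, were 3.5 months old and carried the Sox9-GFP reporter, so no reporter-free mouse was compared. In the C3-TAg model, simian virus T antigens that inactivate p53 and Rb are driven in mammary epithelium by the C3(1) promoter of a rat prostate gene, and mammary tumours develop. How many animals entered a library, and whether an antibody against EPCAM was used to isolate the cells, is not stated in the labels used here. Neither the T antigen nor the reporter had a row in the matrices, so the genotype labels were not checked against them. Each genotype had 1 library, so no test between genotypes was possible, and the intervals below are 95% intervals that cover counting error only.

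Tight junctions seal the space between neighbouring cells at their apical side. Claudins and occludin span the membrane there, and the scaffold protein ZO-1 (Tjp1) ties them to actin. E-cadherin (Cdh1) joins cells at adherens junctions through calcium, and EPCAM is an adhesion protein that binds claudin-7. Connexins such as connexin 43 (Gja1) form gap junctions, through which small molecules pass between cells. In the mammary gland, tight junctions close when milk secretion starts, and connexin 43 is best known from the basal cells that surround the luminal layer. T-cadherin (Cdh13) has no cytoplasmic domain and is held by a lipid anchor.

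The C3-TAg library held 91932121 unique molecular identifiers (UMIs) in 9575 barcodes and the WT library 91133082 in 8993. After filtering and removal of 544 C3-TAg and 360 WT called doublets, 7914 C3-TAg cells with a median of 8684 UMIs and 7046 WT cells with a median of 10296 UMIs remained. The 2 libraries shared 20 barcodes. Cells with at least 5 UMIs of Areg, Pgr, Esr1 and Cited1 together per 10000 were called hormone-sensing, which took 2027 C3-TAg and 2720 WT cells. The other cells were split at a casein share of 0.5% of UMIs into casein-high cells, 2491 in C3-TAg and 3750 in WT, and casein-low cells, 3396 in C3-TAg and 576 in WT. In C3-TAg, 223 other cells had at least 5 UMIs of Cdkn2a, which encodes cell cycle inhibitors, and 218 of these were casein-low. No WT cell outside the hormone-sensing class reached 5 Cdkn2a UMIs. Close to a threshold lay 261 C3-TAg and 46 WT cells with a hormone-sensing score of 4 to 6, 232 C3-TAg and 167 WT cells with a casein share of 0.4 to 0.6%, and 147 C3-TAg cells and 1 WT cell with 4 or 5 Cdkn2a UMIs. Levels are UMIs of a gene per 1000000 UMIs of a class (CPM). Luminal keratins Krt8, Krt18 and Krt19 summed to between 4286 CPM, in Cdkn2a-high cells, and 17806 CPM, in WT casein-low cells. The basal keratin Krt5 was at most 3.83 CPM in the C3-TAg classes and reached 45.5 CPM in WT casein-low cells, 21 of which had 3 or more UMIs of immune or endothelial markers. Cells with 2 or more UMIs of mitotic genes made up 19.4% of hormone-sensing, 70.0% of casein-high and 74.5% of casein-low cells in C3-TAg, against 1.58%, 1.57% and 1.74% of the same classes in WT. The part of cycling cells in the differences below was not tested, other than by leaving such cells out.

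The hormone-sensing class was mixed in C3-TAg. Of its 2027 cells, 933 reached the threshold only with the UMIs of Areg, and 1094 reached it with Pgr, Esr1 and Cited1 alone, whereas in WT 347 cells needed Areg and 2373 did not. In C3-TAg, the cells that needed Areg had 996 CPM of Prlr, the prolactin receptor, 421 CPM of Krt17 and 127 CPM of Mki67. The C3-TAg cells that did not need it had 1967 CPM of Prlr, 10.7 CPM of Krt17 and 6.07 CPM of Mki67. Results in hormone-sensing cells are therefore given for the whole class and for the cells that passed without Areg.

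**Figure D1:**
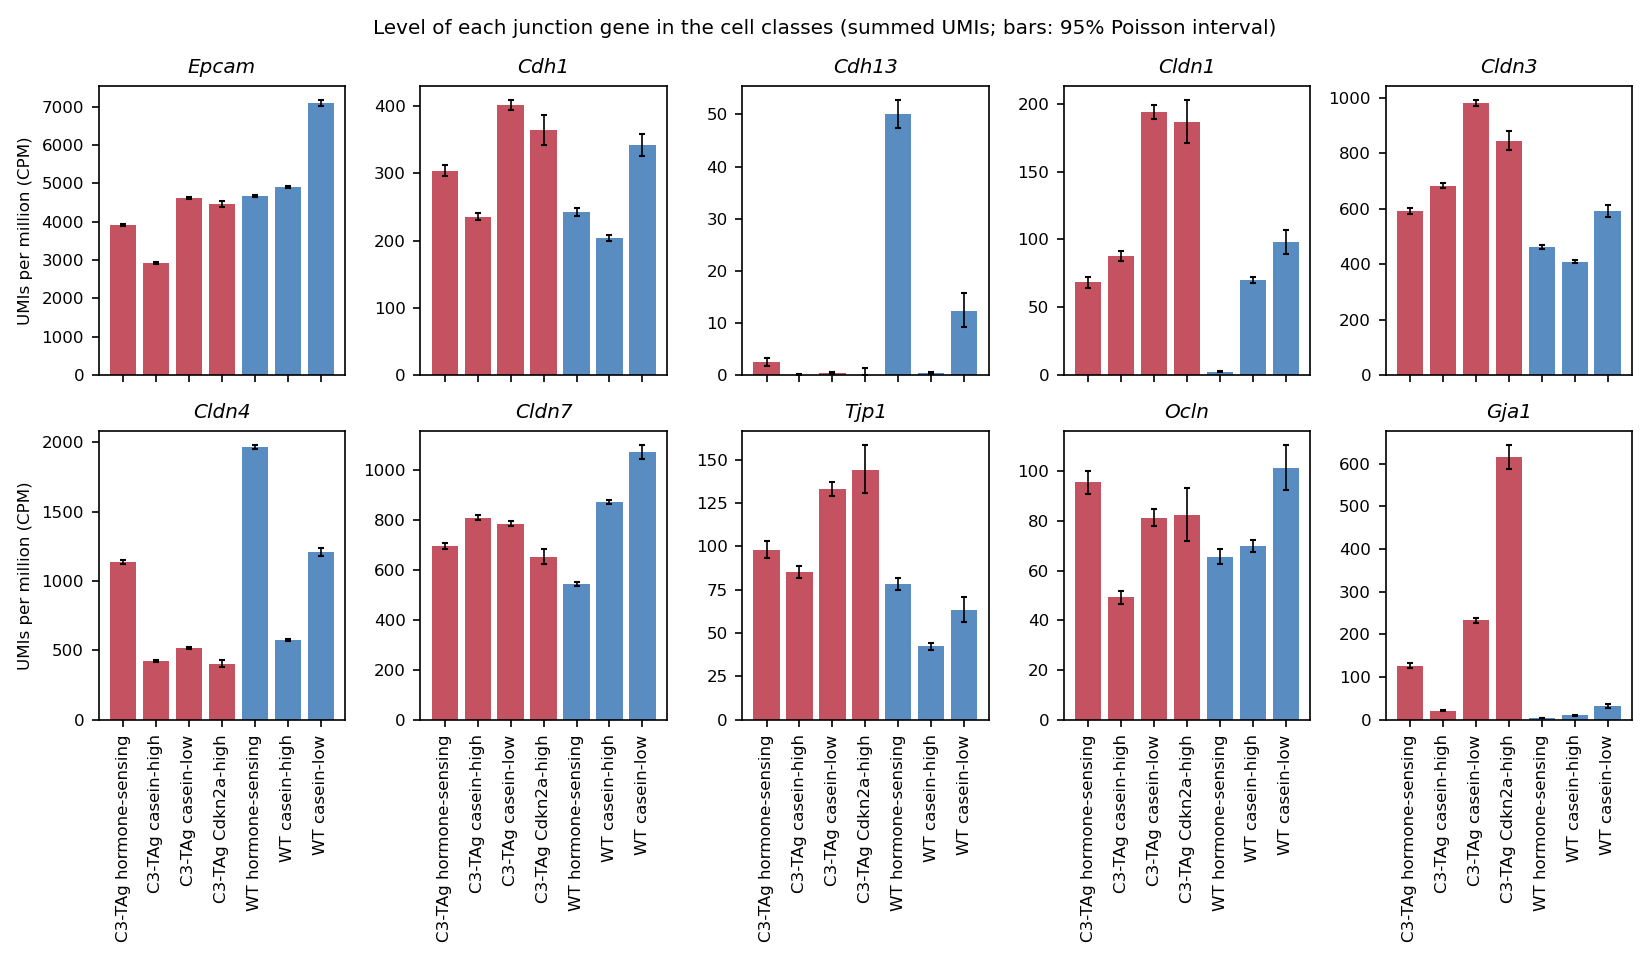
Level of each junction gene in CPM, summed over the cells of each class, in C3-TAg (red) and WT (blue) classes. Casein-high and casein-low C3-TAg cells are those with under 5 Cdkn2a UMIs. Bars are levels and whiskers are 95% Poisson intervals. Gja1 stands highest in C3-TAg Cdkn2a-high cells at 615 CPM, and Cdh13 in WT hormone-sensing cells at 50.1 CPM.

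Between the genotypes, the members did not move as a group. A member counted as higher or lower where its CPM differed by at least 1.5-fold and both sums together held at least 20 UMIs. In hormone-sensing cells, 2 members (Cldn1 and Gja1) were higher in C3-TAg and 2 (Cdh13 and Cldn4) were lower, while 22.8% of the 12786 measured genes were higher and 9.14% lower. Among the hormone-sensing cells that passed without Areg, 1 member (Gja1) was higher and 2 (Cdh13 and Cldn4) lower, beside 11.9% and 9.62% of genes. In casein-high cells, 3 of 9 measured members (Cldn3, Tjp1 and Gja1) were higher and 1 (Epcam) lower, beside 31.2% and 10.6% of genes. In casein-low cells, 4 members (Cldn1, Cldn3, Tjp1 and Gja1) were higher and 3 (Epcam, Cdh13 and Cldn4) lower, beside 37.2% and 14.7% of genes. The median log2 ratio of the measured members was 0.34 in hormone-sensing, 0.22 in casein-high and -0.05 in casein-low cells. Over all measured genes it was 0.14, 0.32 and 0.35. With TMM scaling the median of all genes moves by -0.18, -0.34 and -0.24 in these 3 comparisons, so ratios near 0 carry no direction.

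**Figure D2:**
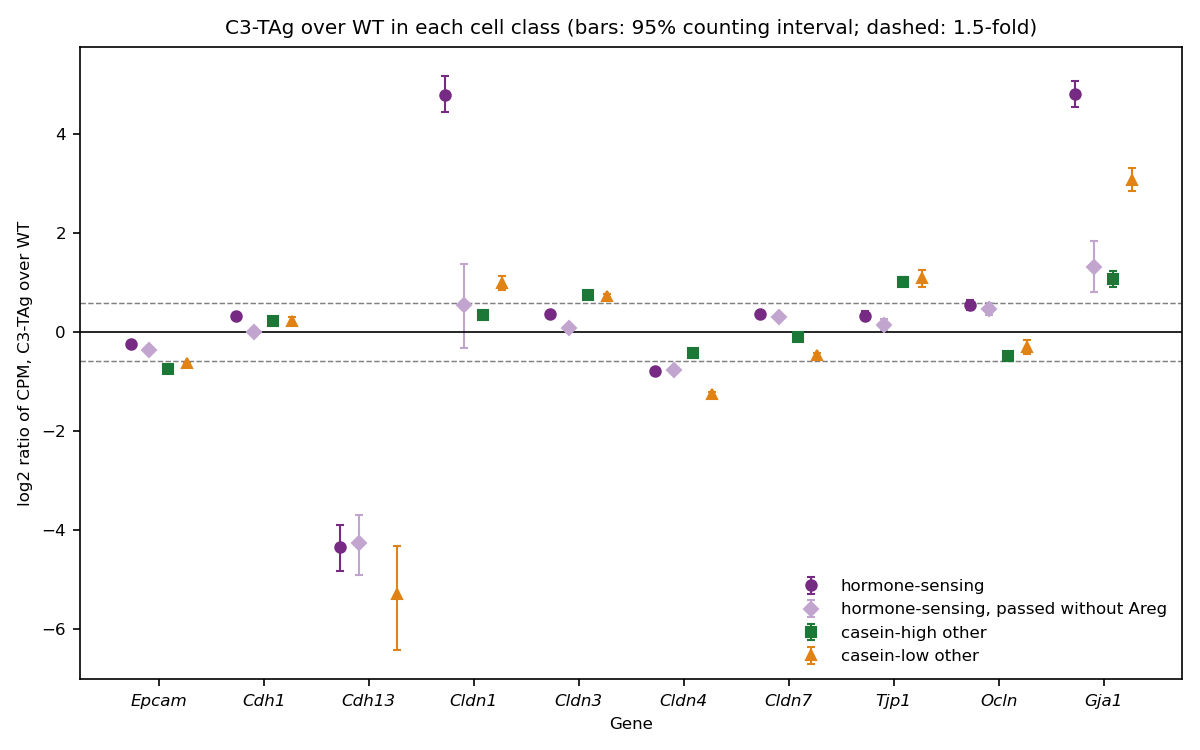
Log2 ratio of C3-TAg over WT CPM for each junction gene in hormone-sensing cells, in those that passed without Areg, and in casein-high and casein-low other cells. Points are ratios, whiskers 95% counting intervals, and dashed lines mark 1.5-fold. The Cldn1 ratio in hormone-sensing cells is 4.79 for the whole class and 0.53 for cells that passed without Areg, whereas that of Cdh13 is -4.34 and -4.27.

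Epcam, at chr17:87635979-87651129 on the plus strand (GRCm38, as for all positions here), was lower in C3-TAg than in WT in all 3 classes. It had 3906 CPM in C3-TAg hormone-sensing cells against 4657 CPM in WT ones (log2 ratio -0.25, -0.27 to -0.24). In casein-high cells it had 2924 CPM in C3-TAg against 4908 CPM in WT (-0.75, -0.76 to -0.74). In casein-low cells it had 4594 CPM in C3-TAg against 7101 CPM in WT (-0.63, -0.65 to -0.61). The WT hormone-sensing and C3-TAg casein-low levels were too close to be ordered given the shift that scaling brings. The casein-low difference passed 1.5-fold by little and fell short of it under 5 alternatives, with ratios between -0.57 and -0.38.

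E-cadherin differed little between genotypes. Cdh1, at chr8:106603351-106670246 on the plus strand, had 304 CPM in C3-TAg and 243 CPM in WT hormone-sensing cells (log2 ratio 0.32), 236 CPM and 203 CPM in C3-TAg and WT casein-high cells (0.22), and 399 CPM and 342 CPM in C3-TAg and WT casein-low cells (0.22). In hormone-sensing cells that passed without Areg the ratio was 0.00 (-0.07 to 0.08), and with TMM scaling those of casein-high and casein-low cells were -0.12 and -0.02. Its level varied less over the 7 classes, by 0.98 on the log2 scale, than that of any other member with a UMI in every class except Cldn7, which also varied by 0.98.

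Cdh13, at chr8:118283733-119324921 on the plus strand, was almost undetected in C3-TAg hormone-sensing cells. It had 2.47 CPM in C3-TAg, from 42 UMIs, against 50.1 CPM in WT, from 1337 UMIs, which is 20.3-fold lower (14.9 to 28.3). The difference was 19.3-fold (12.9 to 30.3) in cells that passed without Areg, where C3-TAg had 2.70 CPM and WT 52.1 CPM. After thinning every cell to 2000 UMIs, 0.495% of C3-TAg and 7.86% of WT hormone-sensing cells had a Cdh13 UMI. At every hormone-sensing score from 5 per 10000 upwards, C3-TAg cells had between 1.15 and 3.81 CPM and WT cells between 39.5 and 62.9 CPM. In WT, the Cdh13 level differed between hormone-sensing cells split by Fxyd2 against Fgb and Calca. These split genes came from earlier results of these data in which Cdh13 already marked the Fxyd2 type, so the WT difference is descriptive only. The 950 cells with more Fxyd2 UMIs than Fgb and Calca UMIs had 92.9 CPM, and the 1497 cells with more Fgb and Calca UMIs had 28.3 CPM. The same split of C3-TAg cells gave 2.15 CPM in 623 cells and 3.43 CPM in 839 cells, so the C3-TAg level was lower on both sides of the split. Casein-high C3-TAg cells had no Cdh13 UMI and WT ones had 15. Casein-low cells had 0.311 CPM in C3-TAg, from 10 UMIs, against 12.2 CPM in WT, from 58 UMIs, and in WT the 181 cells with a casein share under 0.1% had 38.6 CPM and the 395 cells between 0.1% and 0.5% had 1.76 CPM. Cdh13 is also made by endothelial cells, and in casein-low cells the endothelial markers Pecam1, Cdh5, Emcn and Kdr summed to 6.59 CPM in C3-TAg and 26.7 CPM in WT. Without cells that held immune or endothelial UMIs the casein-low log2 ratio was -7.29, against -5.30 with them. It was -2.67 without cells that held 2 or more UMIs of mitotic genes. These ratios rest on at most 10 C3-TAg UMIs, so their size is uncertain. The part of endothelial cells in the WT casein-low level was not tested further. WT casein-low cells may also hold hormone-sensing cells just under the score threshold, and their part in this level is not given here.

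Of the claudins, Cldn3 and Cldn4 differed between genotypes in opposite directions. Cldn3 and Cldn4 lie close to each other on chromosome 5, on opposite strands. Between them are 39279 bases, and no annotated gene lies wholly within this gap. Cldn3 is at chr5:134986214-134987472 on the plus strand and Cldn4 at chr5:134945119-134946934 on the minus strand. Cldn3 was higher and Cldn4 lower in C3-TAg in all 3 classes, not always past 1.5-fold. The 250 bases before the start of each, from RefSeq on GRCm38.p6, are shown with matches to the AP-1 motif TGANTCA in capitals. AP-1 factors include the products of Fos and Jun. The motif reads the same on both strands, is held by 6.75% of 32851 promoter windows of this length, and was chosen with the values known. Cldn3 has no match at chr5:134985964-134986213, and Cldn4 has 2 at chr5:134946935-134947184, which begin 240 and 158 bases before the start and overlap no match to another motif searched. Those were the E-box CACCTG or CAGGTG, in 17.2% of windows, the Grainyhead motif AACNNGTT, in 3.64%, and the Sp1 and Klf motif GGGCGG or CCGCCC, in 32.7%.
Cldn3: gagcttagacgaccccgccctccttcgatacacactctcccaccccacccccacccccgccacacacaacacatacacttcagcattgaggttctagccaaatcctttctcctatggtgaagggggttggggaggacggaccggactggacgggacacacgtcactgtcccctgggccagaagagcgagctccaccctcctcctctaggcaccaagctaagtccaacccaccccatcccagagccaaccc
Cldn4: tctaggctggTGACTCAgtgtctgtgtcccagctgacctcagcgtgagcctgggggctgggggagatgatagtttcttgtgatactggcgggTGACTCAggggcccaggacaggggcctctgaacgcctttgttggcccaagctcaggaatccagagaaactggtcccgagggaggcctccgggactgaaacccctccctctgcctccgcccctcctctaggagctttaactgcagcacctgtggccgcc
These letters describe the windows only, and whether a factor binds there was not measured.

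Cldn3 had 591 CPM in C3-TAg against 462 CPM in WT hormone-sensing cells (log2 ratio 0.35, 0.32 to 0.39). It had 683 CPM in C3-TAg against 409 CPM in WT casein-high cells, 1.67-fold higher, and 970.4 CPM in C3-TAg against 592 CPM in WT casein-low cells, 1.64-fold higher. With TMM scaling the last 2 log2 ratios were 0.40 and 0.47, under 1.5-fold, and in hormone-sensing cells that passed without Areg the ratio was 0.07 (0.02 to 0.12). Cldn3 overlaps Wbscr25 on the other strand, and the sources used here do not state whether counting used the strand. The Wbscr25 row held 252 UMIs in C3-TAg and 66 in WT.

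Cldn4 had 1136 CPM in C3-TAg against 1965 CPM in WT hormone-sensing cells, 1.73-fold lower, and the difference was 1.72-fold in cells that passed without Areg. Its casein-low level was 508 CPM in C3-TAg against 1209 CPM in WT, 2.38-fold lower. In casein-high cells it had 425 CPM in C3-TAg against 572 CPM in WT (log2 ratio -0.43, and -0.77 with TMM scaling, past 1.5-fold). Cldn4 climbed with the hormone-sensing score in both libraries, but differently. In C3-TAg it went through 668, 936, 1229 and 1379 CPM at 5 to 10, 10 to 20, 20 to 40 and 40 or more UMIs per 10000, whereas in WT it was already 1974 CPM at 3 to 5 and stayed between 1917 and 2036 CPM above. With the threshold at 20 UMIs per 10000 the log2 ratio was -0.56, short of 1.5-fold. Among the hormone-sensing bins, the libraries were thus furthest apart just above the threshold, at 5 to 10. Cells at 3 to 5 counted as other cells, and Cldn4 there was 580 CPM in C3-TAg against 1974 CPM in WT. The part of such cells in the casein-low difference is not given here.

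Cldn1, at chr16:26356642-26371841 on the minus strand, had a genotype difference that depended on how hormone-sensing cells were drawn. In the whole class it had 68.3 CPM in C3-TAg against 2.47 CPM in WT, a 27.6-fold difference (21.6 to 36.0). In cells that passed without Areg it had 2.25 CPM in C3-TAg, from 20 UMIs, against 1.55 CPM in WT, from 36 UMIs, and the interval of the log2 ratio, -0.33 to 1.36, included 0. C3-TAg cells that needed Areg had 141 CPM, and casein-low C3-TAg cells 193 CPM. Split by Fxyd2 against Fgb and Calca, hormone-sensing cells had more Cldn1 in C3-TAg on both sides. With more Fxyd2 it was 5.13-fold higher, at 7.52 CPM in C3-TAg against 1.47 CPM in WT, from 35 and 13 UMIs. With more Fgb and Calca it was 7.04-fold higher, at 14.7 CPM against 2.08 CPM, from 107 and 32 UMIs. This split did not leave out cells that needed Areg. Keeping called doublets changed the log2 ratio of the whole class from 4.79 to 3.00, and it was 3.43 with the hormone-sensing threshold at 20. In casein-low cells Cldn1 was 1.98-fold higher (1.80 to 2.18), with 193 CPM in C3-TAg against 97.7 CPM in WT. In casein-high cells it had 88.3 CPM in C3-TAg against 70.1 CPM in WT (log2 ratio 0.33, and -0.01 with TMM scaling).

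Cldn7 and Ocln had ratios of both signs, none of which passed 1.5-fold in the main scaling. Cldn7, at chr11:69964779-69967885 on the plus strand, had 695 CPM in C3-TAg against 543 CPM in WT hormone-sensing cells, 808 CPM in C3-TAg against 871 CPM in WT casein-high cells, and 771 CPM in C3-TAg against 1069 CPM in WT casein-low cells. Ocln, at chr13:100496507-100552718 on the minus strand, had 95.4 CPM in C3-TAg against 65.6 CPM in WT hormone-sensing cells, 49.5 CPM in C3-TAg against 69.7 CPM in WT casein-high cells, and 81.2 CPM in C3-TAg against 101 CPM in WT casein-low cells. Both thus had higher values in C3-TAg than in WT hormone-sensing cells and lower values in the other C3-TAg cells. With TMM scaling the log2 ratio of Ocln was -0.83 in casein-high cells and that of Cldn7 -0.71 in casein-low cells, both past 1.5-fold. Among hormone-sensing cells with more Fgb and Calca than Fxyd2, Ocln was 1.60-fold higher, at 91.0 CPM in C3-TAg against 57.0 CPM in WT. Among those with more Fxyd2 it was 1.32-fold higher, at 106 CPM against 80.6 CPM, and the intervals of the 2 log2 ratios overlapped. With the threshold at 20 the log2 ratio of Ocln in hormone-sensing cells was 0.63.

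Tjp1, at chr7:65296165-65527781 on the minus strand, was 2.02-fold higher (1.90 to 2.14) in C3-TAg casein-high cells, with 85.6 CPM against 42.4 CPM in WT. It was 2.12-fold higher (1.88 to 2.39) in C3-TAg casein-low cells, with 134 CPM against 63.2 CPM in WT. The median log2 ratio over all measured genes was 0.32 in casein-high and 0.35 in casein-low cells, and TMM scaling moves it by -0.34 and -0.24. In hormone-sensing cells Tjp1 had 98.1 CPM in C3-TAg against 78.2 CPM in WT (log2 ratio 0.33). In those that passed without Areg its log2 ratio was 0.14 (0.02 to 0.27). Tjp1 and Cdh13 overlap unnamed gene models, so a part of their reads may be counted elsewhere.

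Gja1 had the widest range of the 9 members with a UMI in every class, 7.07 on the log2 scale over the 7 classes. It lies at chr10:56377330-56402513 on the plus strand. Its 250 bases before the RefSeq start, at chr10:56377050-56377299, hold 1 AP-1 match (in capitals), 19 bases before the start.
Gja1: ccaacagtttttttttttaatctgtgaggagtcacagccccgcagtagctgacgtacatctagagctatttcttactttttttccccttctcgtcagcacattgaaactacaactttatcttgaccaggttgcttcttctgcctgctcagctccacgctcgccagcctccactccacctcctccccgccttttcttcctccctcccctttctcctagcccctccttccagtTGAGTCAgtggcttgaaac
Of the 8 members with a promoter entry, only Cldn4 and Gja1 held this motif, and their levels differed between genotypes in opposite directions.

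Gja1 was highest in C3-TAg Cdkn2a-high cells at 615 CPM, from 1768 UMIs. It had 233 CPM in C3-TAg casein-low cells with under 5 Cdkn2a UMIs, 127 CPM in C3-TAg hormone-sensing cells and 21.6 CPM in C3-TAg casein-high cells with under 5 Cdkn2a UMIs. The WT levels were 31.8 CPM in casein-low, 10.7 CPM in casein-high and 4.57 CPM in hormone-sensing cells. Gja1 was 8.41-fold higher (7.16 to 9.95) in all C3-TAg casein-low cells than in WT ones, and 7.34-fold without the Cdkn2a-high cells. In casein-high cells it was 2.09-fold higher (1.86 to 2.36), at 22.4 CPM in C3-TAg against 10.7 CPM in WT. In the whole hormone-sensing class it was 27.8-fold higher (23.2 to 33.6). In cells that passed without Areg it was 2.49-fold higher (1.74 to 3.56), at 7.19 CPM in C3-TAg, from 64 UMIs, against 2.89 CPM in WT, from 67 UMIs. With cells that held 2 or more UMIs of mitotic genes left out, the log2 ratio of the whole class was 2.48, against 4.80 with them, and it was 2.01 with the hormone-sensing threshold at 20. Since Gja1 is known from basal cells, the 7 basal markers were read beside it. They summed to 599.5 CPM in C3-TAg Cdkn2a-high, 433 CPM in C3-TAg casein-low, 465 CPM in C3-TAg casein-high and 115 CPM in C3-TAg hormone-sensing cells, against 213 CPM in WT casein-low, 31.5 CPM in WT casein-high and 17.3 CPM in WT hormone-sensing cells. Krt14 made up most of the sum in each of these classes. The sum, like Gja1, was highest in C3-TAg Cdkn2a-high and lowest in WT hormone-sensing cells. C3-TAg casein-high cells had a high sum but little Gja1. In C3-TAg, Acta2, Myh11, Trp63 and Krt5 were each at most 4.54 CPM in these 4 classes. Oxtr was at 0 in C3-TAg Cdkn2a-high and hormone-sensing cells, and Mylk is not given here. Leaving out cells with 3 or more UMIs of basal markers other than Krt14 gave a Gja1 log2 ratio of 3.29 in casein-low cells, against 3.07 with them.

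**Figure D3:**
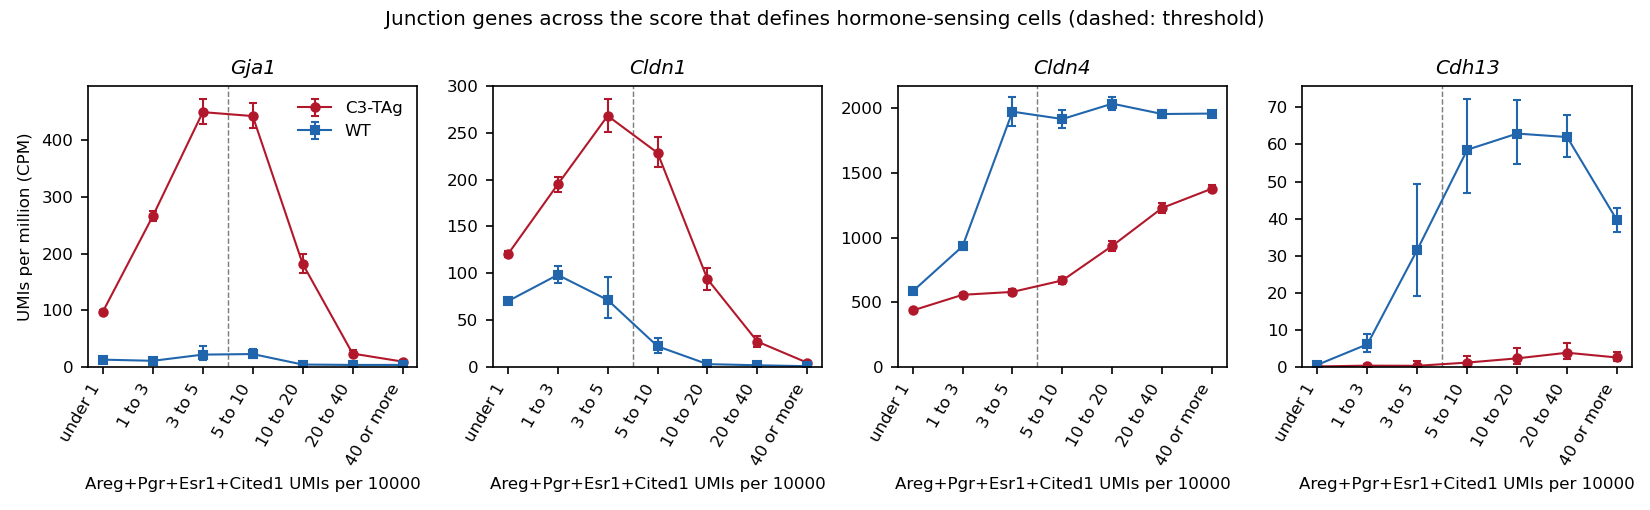
Level of Gja1, Cldn1, Cldn4 and Cdh13 in CPM across bins of the Areg, Pgr, Esr1 and Cited1 score, in C3-TAg (red circles) and WT (blue squares), with 95% Poisson intervals. The dashed line is the threshold for hormone-sensing cells. C3-TAg Gja1 reads 449.9 CPM at 3 to 5, 443 CPM at 5 to 10 and 9.30 CPM at 40 or more, while Cdh13 is low in C3-TAg throughout.

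Ordered by level, 10 of 58 pairs of neighbouring classes had a ratio whose counting interval included 1. For the other pairs the order holds against counting error only, with 1 library per genotype, and scaling could turn small differences between classes. The pairs that counting could not order were, for Cdh1, C3-TAg Cdkn2a-high and WT casein-low cells, and WT hormone-sensing and C3-TAg casein-high cells. For Cldn1 they were C3-TAg casein-low and Cdkn2a-high cells, and WT casein-high and C3-TAg hormone-sensing cells. For Cldn3 they were WT casein-low and C3-TAg hormone-sensing cells, for Cldn4 C3-TAg casein-high and Cdkn2a-high cells, and for Cdh13 C3-TAg casein-low and WT casein-high cells. Cdkn2a-high and casein-low C3-TAg cells could not be ordered for Tjp1 and Ocln, nor WT casein-low and C3-TAg hormone-sensing cells for Ocln.

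Within WT, 6 of 10 members differed between hormone-sensing and other cells, which is near the share over all genes. In hormone-sensing cells 3 members were higher than in the other cells (Cdh13, Cldn4 and Tjp1) and 3 lower (Cldn1, Cldn7 and Gja1), beside 37.5% and 21.1% of genes. Cldn1 had 2.47 CPM in WT hormone-sensing cells against 72.7 CPM in WT other cells, 29.4-fold lower (23.1 to 38.1). Cldn4 had 1965 CPM against 631 CPM, 3.11-fold higher, and Cdh13 50.1 CPM against 1.41 CPM, 35.4-fold higher (28.0 to 45.4). Tjp1 had 78.2 CPM against 44.3 CPM, Cldn7 543 CPM against 889 CPM, and Gja1 4.57 CPM against 12.7 CPM. In C3-TAg, 2 members were higher in hormone-sensing than in other cells (Cdh13 and Cldn4) and 1 lower (Cldn1), beside 20.1% and 24.2% of genes. Left to cells that passed without Areg, the number of lower members was 3 and the Cldn1 log2 ratio -6.0, against -1.07 in the whole class. Which cells count as hormone-sensing therefore set the size of this contrast in C3-TAg. In WT the Cldn1 log2 ratio was -5.55 without the cells that needed Areg and -4.88 with them, and -2.90 with called doublets kept.

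Among the other cells, no member was at least 1.5-fold higher where casein was high, in either genotype, and some were lower. In C3-TAg, 6 of 9 measured members (Epcam, Cdh1, Cldn1, Tjp1, Ocln and Gja1) were at least 1.5-fold lower in casein-high than in casein-low cells and 0 were higher, beside 30.8% and 8.99% of genes. In WT, 4 of 10 (Cdh1, Cdh13, Cldn4 and Gja1) were lower and 0 higher, beside 25.9% and 8.13% of genes. The median log2 ratio of the measured members was -0.65 in C3-TAg and -0.56 in WT, against -0.30 and -0.24 over all measured genes. TMM scaling moves the median of all genes by 0.29 in C3-TAg and 0.32 in WT, and with it 2 members (Cldn1 and Gja1) stayed lower in C3-TAg. Gja1 declined across the casein bins of both libraries. Across casein shares of under 0.1%, 0.1 to 0.5%, 0.5 to 2%, 2 to 5% and 5% or more, it had 310, 82.0, 28.6, 19.4 and 12.4 CPM in C3-TAg and 37.1, 29.7, 21.6, 13.2 and 4.57 CPM in WT. The 2 libraries were therefore furthest apart in Gja1 where casein was lowest.

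**Figure D4:**
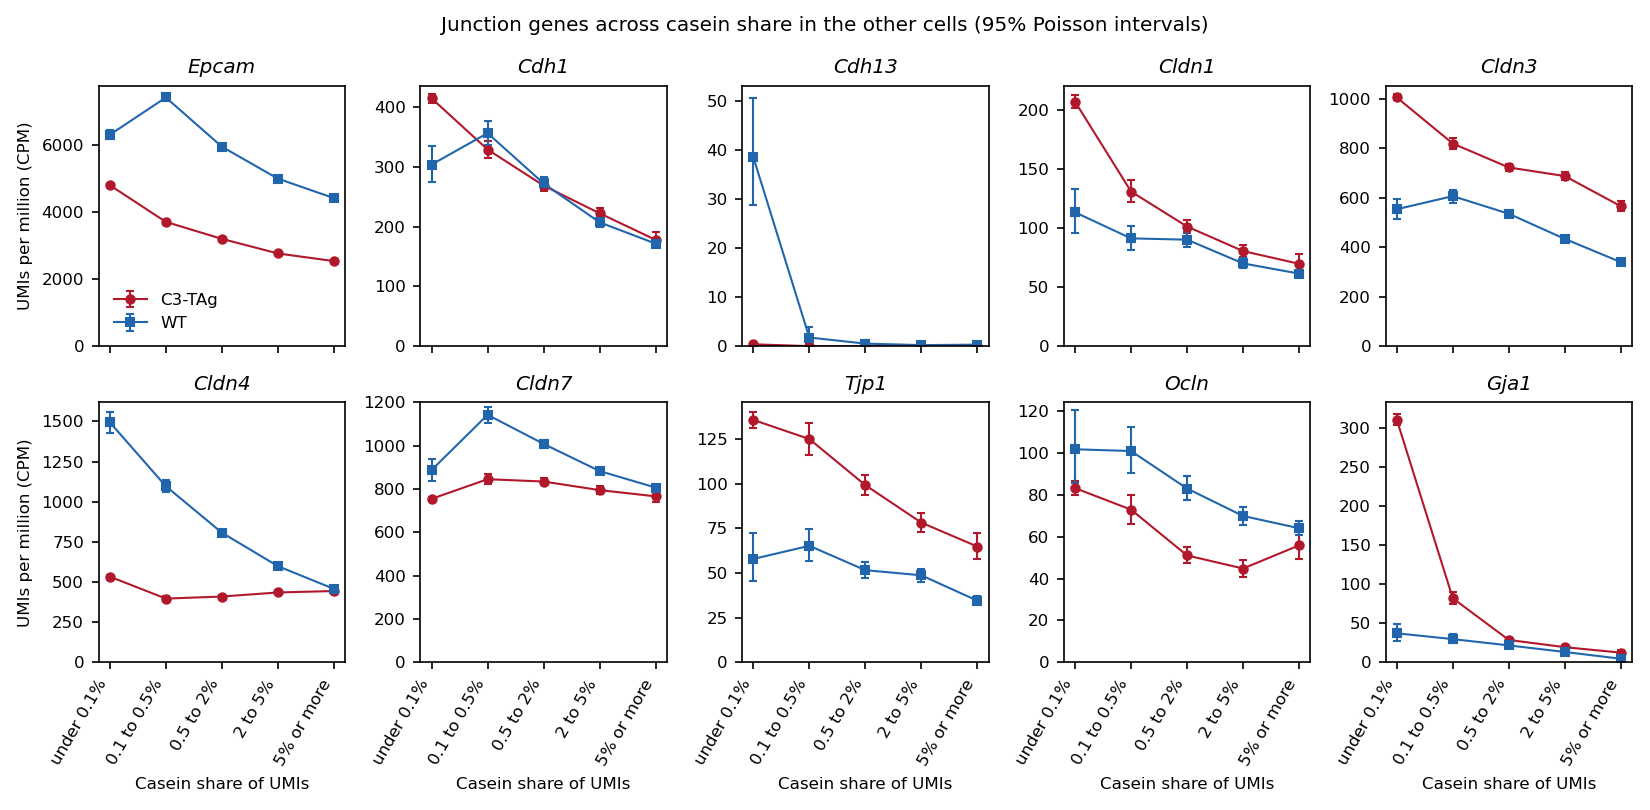
Level of each junction gene in CPM across bins of the casein share of UMIs, in other cells of C3-TAg (red circles) and WT (blue squares), with 95% Poisson intervals. Most genes decline with casein in both libraries. Cldn4 stays between 397 and 533 CPM in C3-TAg, and in WT it is 1494 CPM in the lowest bin and 457 CPM in the highest.

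Epcam had 4799.7 CPM in the lowest and 2537 CPM in the highest casein bin of C3-TAg. In WT it peaked at 7416 CPM between 0.1% and 0.5% and had 4415 CPM in the highest bin, so WT lay above C3-TAg in every bin. Cldn4 took a different course in each library. In C3-TAg it had 533, 397, 409.6, 435 and 444 CPM from the lowest to the highest casein bin, and in WT 1494, 1096, 807, 599 and 457 CPM. The 2 libraries thus differed most in the lowest bin and had nearly the same Cldn4 level in the highest. Cldn7 stayed between 754 and 845 CPM in C3-TAg. Cdh1 was close between the libraries at high casein, with 178 CPM in C3-TAg and 172 CPM in WT at 5% or more.

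Among the members, Gja1 stood apart in cells with high Cdkn2a. Of 9 measured members, 1 (Gja1) was at least 1.5-fold higher in Cdkn2a-high than in the other C3-TAg cells outside the hormone-sensing class and 0 were lower, beside 28.8% and 10.1% of genes. Gja1 had 615 CPM in Cdkn2a-high against 129 CPM in Cdkn2a-low cells, 4.76-fold higher (4.52 to 5.01). Within casein-low cells it had 634 CPM in Cdkn2a-high against 233 CPM in Cdkn2a-low cells, 2.72-fold higher (2.58 to 2.86), again as the 1 member past 1.5-fold, with 0 lower, beside 17.5% and 8.64% of genes. In that comparison Epcam had a log2 ratio of -0.04 (-0.06 to -0.01), Cdh1 -0.14 (-0.24 to -0.05), Cldn3 -0.21, Cldn7 -0.29 and Cldn4 -0.40. Cdkn2a-high cells were deeper, with a median of 11867 UMIs against 9154 in Cdkn2a-low cells, and 86.5% of them had 2 or more UMIs of mitotic genes, against 72.1% of Cdkn2a-low cells. Set against WT casein-low cells, Cdkn2a-high cells had 3 members higher (Cldn1, Tjp1 and Gja1) and 4 lower (Epcam, Cdh13, Cldn4 and Cldn7), beside 44.7% and 15% of genes. Gja1 was 19.3-fold higher and Cldn4 2.98-fold lower in that comparison.

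**Figure D5:**
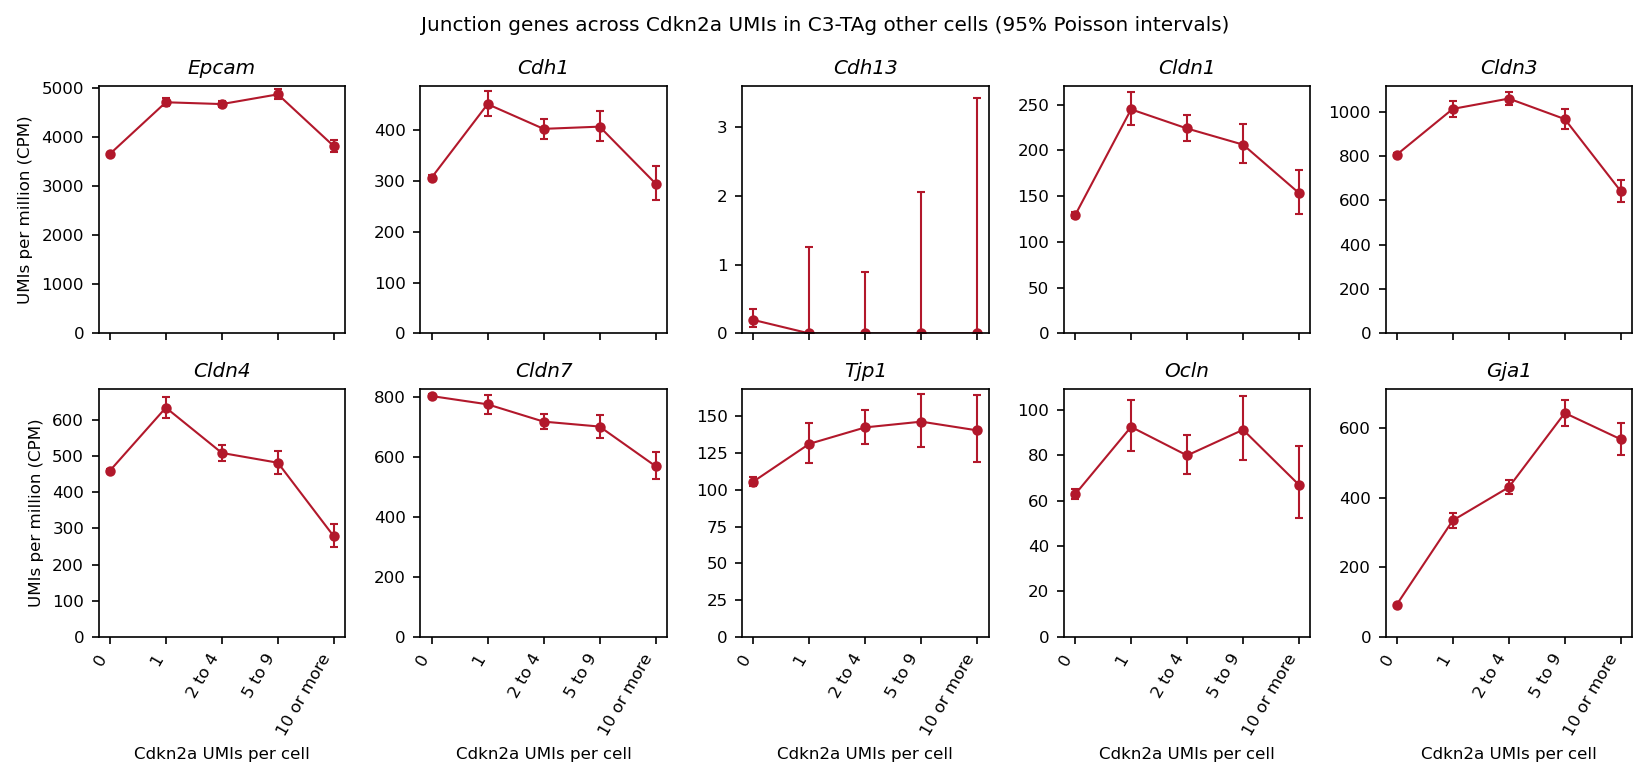
Level of each junction gene in CPM across Cdkn2a UMIs per cell in C3-TAg other cells, with 95% Poisson intervals. Gja1 is at 93.0 CPM in cells with no Cdkn2a UMI and at 644 CPM at 5 to 9 UMIs, and Cldn4 is lowest at 10 or more, at 278 CPM.

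The 78 cells with 10 or more Cdkn2a UMIs differed from the 145 cells with 5 to 9. Epcam had 3808 CPM at 10 or more and 4864 CPM at 5 to 9, Cdh1 295 and 407 CPM, Cldn3 641 and 967 CPM, and Cldn4 278 and 482 CPM. Gja1 had 568 CPM at 10 or more and 644 CPM at 5 to 9. All 5 were thus lower at 10 or more than at 5 to 9, past 1.5-fold for Cldn3 and Cldn4 only. Cells with no Cdkn2a UMI had 3650.3 CPM of Epcam, 306 CPM of Cdh1, 806 CPM of Cldn3, 459.5 CPM of Cldn4 and 93.0 CPM of Gja1. Just below the threshold, the 389 cells with 2 to 4 Cdkn2a UMIs had 4666 CPM of Epcam, 509 CPM of Cldn4 and 430.1 CPM of Gja1.

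Per cell, after thinning to 2000 UMIs, Epcam was seen in 96.3% to 99.8% of the cells of every class. A Gja1 UMI was found in 52.9% of Cdkn2a-high cells (46.1 to 59.6), 20.6% of C3-TAg casein-low cells with under 5 Cdkn2a UMIs (19.2 to 22.1) and 9.01% of C3-TAg hormone-sensing cells, against 6.15% of WT casein-low and 0.627% of WT hormone-sensing cells. Without thinning, the share of Cdkn2a-high cells was 84.3%. Cldn4 was seen in 74.3% of C3-TAg and 89.4% of WT hormone-sensing cells, and Tjp1 in 15.9% of C3-TAg and 8.18% of WT casein-high cells. Cells with 3 or more UMIs of immune or endothelial markers and under 5 UMIs of Krt8, Krt18 and Krt19 per 10000, which should lack Epcam, numbered 6 in C3-TAg and 15 in WT at this depth, and an Epcam UMI was found in 1 of the 6 and 3 of the 15. Gja1 and Cdh13 are known from endothelial cells, so these cells give no background for them. The median number of the 10 members seen in a thinned cell was 5 in Cdkn2a-high cells, 3 in WT casein-high cells and 4 in each of the other 5 classes.

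Other junction genes were drawn from 6 lists with 97 genes. Over all lists, 19 of 79 measured genes were higher and 8 lower in C3-TAg hormone-sensing cells, 24 and 8 of 77 in casein-high cells, and 23 and 13 of 82 in casein-low cells. Of all genes, 22.8% and 9.14%, 31.2% and 10.6%, and 37.2% and 14.7% were higher and lower in these classes, so the lists did not exceed the background of higher genes by much in hormone-sensing cells and lay at or under it in the other 2 classes. The 36 tight junction genes had 9 of 31 measured higher and 2 lower in hormone-sensing cells, 11 of 31 higher and 2 lower in casein-high, and 9 of 32 higher and 5 lower in casein-low cells. Of the 19 adherens junction genes, 1 of 15 was higher and 1 lower in hormone-sensing cells, and 3 of 14 higher and 1 lower in both casein-high and casein-low cells. Desmosome genes had 2 of 7 higher and 0 lower in hormone-sensing, 1 of 7 higher and 1 lower in casein-high, and 2 of 9 higher and 1 lower in casein-low cells. Gap junction genes had 2 of 7 higher and 4 lower in hormone-sensing cells, but 4 of 7 higher in casein-high and 3 of 7 higher in casein-low cells, with 0 lower in either. Among the hormone-sensing cells that passed without Areg, 7 of 72 were higher and 10 lower, beside 11.9% and 9.62% of all genes. Of the 5 gap junction genes measured there, 4 were lower in C3-TAg. Gjb2, which encodes connexin 26, had 46.8 CPM in C3-TAg against 1.498 CPM in WT in the whole class, but 2.70 CPM against 0.86 CPM in cells that passed without Areg. In casein-low cells Gjb2 had 125 CPM in C3-TAg against 48.0 CPM in WT, and Ajuba and Plekha7, which act at adherens junctions, had 29.3 and 44.6 CPM in C3-TAg against 5.27 and 8.42 CPM in WT.

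The 7 partners and proteases of EPCAM had 2 higher and 0 lower in hormone-sensing, 1 higher and 1 lower in casein-high, and 1 higher and 2 lower in casein-low cells. Spint1, an inhibitor of membrane serine proteases such as matriptase, had 37.5 CPM in C3-TAg against 155 CPM in WT casein-low cells. Epcam was also lower in this class, as were 14.7% of all measured genes, and a link between Spint1 and Epcam was not tested. Of 16 transcription factors and splicing regulators, 3 of 12 measured were higher and 1 lower in hormone-sensing, 4 of 11 higher and 3 lower in casein-high, and 5 of 13 higher and 4 lower in casein-low cells. The transcription factors Grhl2 and Ovol2 and the splicing factor Esrp1 had log2 ratios between -0.10 and 0.71 in the 3 genotype comparisons. Snai1, a repressor of Cdh1 known from epithelial-mesenchymal transition, was lower in C3-TAg, at 1.86 CPM against 49.3 CPM in WT casein-low cells and 5.21 CPM against 42.4 CPM in WT casein-high cells. Zeb2, a second such repressor, had 41.1 CPM in Cdkn2a-high against 2.16 CPM in Cdkn2a-low cells, and within casein-low cells 42.9 against 3.94 CPM. Zeb2 is also made by macrophages and fibroblasts. In Cdkn2a-high cells the 5 immune markers summed to 0.348 CPM, and the 5 fibroblast and pericyte markers to 33.8 CPM, of which 31.7 CPM were Col1a2, while Col1a1, Lum and Rgs5 were at 0. Zeb1 had 2.09 CPM in Cdkn2a-high against 0.38 CPM in Cdkn2a-low cells, from 6 and 22 UMIs, and Snai2 and Twist1 had under 1 CPM in every class compared. Cdh1 had 365 CPM in the same Cdkn2a-high cells, against 320 CPM in Cdkn2a-low ones. Within casein-low cells the direction was the other, with 365 CPM in Cdkn2a-high against 402 CPM in Cdkn2a-low cells (log2 ratio -0.14, -0.24 to -0.05).

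By casein, desmosome genes differed most among the lists. Of 8 measured desmosome genes, 6 in C3-TAg and 5 in WT were lower in casein-high than in casein-low cells, with median log2 ratios of -1.99 and -1.88. Dsp, which encodes desmoplakin, had 7.24 CPM in casein-high against 86.6 CPM in casein-low C3-TAg cells, and 5.996 CPM against 83.8 CPM in WT. Pkp1, a plakophilin, had 5.56 CPM against 88.2 CPM in C3-TAg and 2.65 CPM against 40.01 CPM in WT. Over all lists, 40 of 81 measured genes in C3-TAg and 37 of 80 in WT were lower where casein was high, and 4 and 3 were higher, beside 30.8% of all genes lower in C3-TAg and 25.9% in WT. Cdkn2a-high cells had 5 of 8 measured desmosome genes higher than Cdkn2a-low cells, and 25 of 81 genes over all lists higher and 5 lower, beside 28.8% and 10.1% of all genes. Within casein-low cells those counts were 4 of 8 and, over all lists, 12 and 4 of 78, beside 17.5% and 8.64% of all genes. The share of higher list genes was near the background in both comparisons. In WT hormone-sensing cells, Cldn10 had 291 CPM against 3.91 CPM in WT other cells, Cldn6 42.7 against 0.66 CPM, and Dsp 152 against 13.2 CPM.

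Among the genes whose levels over the 7 classes were most like those of Gja1 were Asprv1 and Lgals1, with Pearson r of 0.995 and 0.992 on log2(CPM + 5). Those most like Cldn1 were Dusp5, Gjb2 and Cdc42ep3, with r of 0.995, 0.991 and 0.989. They ranked near the top of the 4474 genes that reached 50 CPM in any class, and since 7 classes from 2 libraries share depth and cells' origin, these values describe the order of the classes only.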

How the data were processed

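Both libraries were prepared with a 10x Chromium 3′ kit and deposited by the authors as raw UMI counts per gene and barcode; the submitters' processing notes list Cell Ranger 3.1.0 and mm10. Barcodes with at least 500 genes, at least 1000 UMIs and at most 10% mitochondrial UMIs were kept, and doublets called by Scrublet (scanpy 1.11.5) were removed. UMIs were summed per library and class and divided by the class total. Ratios carry exact conditional Poisson intervals and shares exact binomial (Clopper-Pearson) intervals, both at 95% and for counting error only. With 1 library per genotype no p-value was computed. The members and lists were chosen with earlier results of these data known. Named were all members, the 2 highest and 2 lowest list genes per comparison with at least 20 CPM, and 8 regulators fixed by name. List genes outside this rule were named after their values were seen. Some genes that the rule names are not reported here. Promoters came from RefSeq (GRCm38.p6), with entries for 8 of 10 members, and positions from GENCODE M21. Thinning to 2000 UMIs used a fixed seed. Calling was tested only on simulated Poisson counts, which hold no variation between libraries or cells, so this does not bear on differences between animals. TMM factors came from edgeR 4.0.16 in R 4.3.3, and all else from Python 3.11.15 with scipy 1.17.1, numpy 2.4.6 and pandas 2.3.3.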

Additional observations from a re-analysis of the deposited data

Results flagged for a closer look

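Cldn7 had C3-TAg over WT log2 ratios of 0.36 in hormone-sensing, -0.11 in casein-high and -0.47 in casein-low cells. Ocln had 0.54 in hormone-sensing, -0.50 in casein-high and -0.32 in casein-low cells. Both stood out because C3-TAg lay above WT in one class and below it in the others, and this difference between classes was not tested. Without the cells that needed Areg, the hormone-sensing ratios were 0.30 for Cldn7 and 0.46 for Ocln.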

How the results depend on the processing

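No paired analysis was possible because each genotype had 1 library. Of 1181 member ratios under alternatives, 1134 kept their sign. The 35 ratios past 1.5-fold were recomputed 530 times, of which 505 stayed past it and 0 reversed, so that sign changes touched smaller ratios only. Of 246 counts of members, 25 moved by over 1.5 times. Higher members in C3-TAg hormone-sensing cells were 1 instead of 2 without cells that needed Areg, and lower ones 1 instead of 2 with the threshold at 20. Lower members in casein-high cells were 3 instead of 1 with TMM or median-of-ratios scaling, and 2 with milk and mitochondrial UMIs left out of the total, doublets kept, all barcodes, no minimum of UMIs, or the hormone-sensing threshold at 20. Against Cdkn2a-low cells, higher members were 2 instead of 1 with no minimum, the threshold at 20, or other cells with a hormone-sensing UMI left out, and 3 without mitotic cells; lower ones were 1 instead of 0 with either scaling or Cdkn2a from 10. In C3-TAg hormone-sensing against other cells, higher members were 1 instead of 2 with thinned cells, and lower ones 3 instead of 1 with thinned cells, means over cells, thresholds at 10 or 20, or without mitotic or Areg-dependent cells. Lower members in C3-TAg casein-high cells were 2 instead of 6 with either scaling. The share of cells with a UMI, as the median over members and classes, was 74.9% unthinned against 34.2% thinned. The cause of these changes was not tested. Members with few UMIs, Cdh13 above all, were limited by depth.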
